A study of Mus musculus with 8 samples.

Results

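Neurotrophic factors are secreted proteins that keep neurons alive and shape their growth, and the 8 genes described here encode 3 of these ligands and 5 receptors or co-receptors for them. The ligands are *Bdnf* (brain-derived neurotrophic factor), *Ntf3* (neurotrophin 3) and *Gdnf* (glial cell line-derived neurotrophic factor), and the receptors are *Ngfr* (p75NTR, which binds every neurotrophin), *Ntrk2* (TrkB), *Ntrk3* (TrkC), *Gfra1* and *Gfra2*. They were taken by gene symbol from the 54532 Ensembl gene identifiers of the count files, and all 8 were found. RNA had been sequenced from 8 primary cultures of brain pericytes of wild-type mice (genotype WT), the contractile cells that surround capillaries, with 4 cultures kept in TGF-β1 (5 μg/mL) and the other 4 in vehicle over 48 h, to see what this cytokine changes in pericytes. The design text gives 8 cultures while the methods describe 4 isolates that each received both treatments, and the labels number the vehicle cultures 1 to 4 and the TGF-β1 cultures 5 to 8 without pairing them. The methods name adult males for the study's mice in general and give strains only for its prostate models, without saying which animals the pericytes came from. The cells had been expanded over several passages, first on collagen-coated plates, before treatment.

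The neurotrophins are made as longer precursors and cut by proconvertases. Each binds a Trk receptor tyrosine kinase, BDNF binding TrkB and neurotrophin 3 binding TrkC, and all of them bind p75NTR, which acts with sortilin as a receptor for uncut precursors. GDNF belongs to the separate TGF-β superfamily branch of GDNF family ligands, is held at the cell surface by the GPI-anchored co-receptor GFRα1, and signals through the Ret kinase or, without Ret, through NCAM. GFRα2 is the preferred co-receptor of neurturin. In the brain these ligands are best known from neurons and glia, and mural cells of vessels are a further known source.

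The start sites of the members that rose are shown first, because the counts are sums over all transcripts of a gene and cannot say which of its starts was used. RefSeq windows on GRCm38.p6 (the assembly that mm10 names), each with 250 bases before and 50 after an annotated start, were held for 6 of the 8 members. *Bdnf* had 7 such windows, *Gdnf* and *Ntf3* had 2 each, and *Gfra1*, *Ngfr* and *Ntrk2* had 1 each. The capitals mark every match, on either strand, to 4 searched motifs, which were CAGAC (a box bound by SMAD3 and SMAD4), GTCTAGAC (the palindromic SMAD element), TGANTCA (AP-1) and TGACGTCA (the cAMP response element). No match to one motif contains a match to another, and the last 3 motifs each read the same on both strands. The windows printed are both of *Gdnf*, that of *Gfra1*, and those of the second and the last of the 7 *Bdnf* starts, the second because it alone held a TGANTCA match and the last because it lies farthest downstream. The downstream *Gdnf* window holds no match and so no capitals.
*Gdnf* upstream start, chr15:7809798-7810097, plus strand: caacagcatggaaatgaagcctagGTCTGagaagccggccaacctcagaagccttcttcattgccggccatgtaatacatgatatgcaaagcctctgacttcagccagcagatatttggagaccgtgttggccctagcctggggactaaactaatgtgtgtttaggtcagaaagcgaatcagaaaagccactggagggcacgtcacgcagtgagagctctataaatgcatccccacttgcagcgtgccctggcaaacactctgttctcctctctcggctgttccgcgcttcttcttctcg
*Gdnf* downstream start, chr15:7813477-7813776, plus strand: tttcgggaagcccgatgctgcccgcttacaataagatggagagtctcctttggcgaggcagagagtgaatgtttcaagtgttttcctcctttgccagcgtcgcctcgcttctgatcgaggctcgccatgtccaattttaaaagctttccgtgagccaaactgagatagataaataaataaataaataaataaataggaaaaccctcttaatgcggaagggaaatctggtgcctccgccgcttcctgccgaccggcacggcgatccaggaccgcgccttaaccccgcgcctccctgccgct
*Gfra1* start, chr19:58455349-58455648, minus strand: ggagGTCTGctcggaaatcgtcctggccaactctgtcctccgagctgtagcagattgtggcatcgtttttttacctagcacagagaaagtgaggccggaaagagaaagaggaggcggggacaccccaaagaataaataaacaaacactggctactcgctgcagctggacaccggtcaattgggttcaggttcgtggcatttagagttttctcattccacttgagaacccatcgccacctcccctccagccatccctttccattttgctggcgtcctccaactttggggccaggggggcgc
*Bdnf* second start, chr2:109676782-109677081, plus strand: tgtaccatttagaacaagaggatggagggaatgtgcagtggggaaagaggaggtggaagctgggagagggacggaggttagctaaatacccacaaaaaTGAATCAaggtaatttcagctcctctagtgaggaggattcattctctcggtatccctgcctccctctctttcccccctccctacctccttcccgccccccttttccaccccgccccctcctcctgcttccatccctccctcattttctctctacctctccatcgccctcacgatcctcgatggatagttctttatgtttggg
*Bdnf* last start, chr2:109722671-109722970, plus strand: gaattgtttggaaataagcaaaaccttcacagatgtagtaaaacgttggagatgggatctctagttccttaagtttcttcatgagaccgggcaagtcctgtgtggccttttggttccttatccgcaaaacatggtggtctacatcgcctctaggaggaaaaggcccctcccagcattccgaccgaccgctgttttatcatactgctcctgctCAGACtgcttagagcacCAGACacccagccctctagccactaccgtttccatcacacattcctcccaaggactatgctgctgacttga
CAGAC was found in 6 of the 10 windows of *Bdnf*, *Gdnf* and *Gfra1*, and in 49.6% of all 32851 windows, which is a common match. TGANTCA was found in 1 of the 10 windows, against 7.81% of all windows. Neither GTCTAGAC (0.213% of all windows) nor TGACGTCA (1.79%) was found in any of the 14 windows of the members. These matches are letters in a sequence and not measured binding.

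The count totals ranged from 45255235 to 47651397 per culture with p = 0.857 for vehicle against TGF-β1 (two-sided exact permutation test), and 3 counts corresponded to 0.0631 to 0.0658 CPM, counts per 1e6 counts of the library after TMM scaling. From 68.5% to 70.2% of the counts between 1 and 20 were even numbers, so a read pair may have been counted as 2 and the intervals from counting error given here are then too narrow. Of 10 pericyte markers 8 were tested, and 4 rose and 2 fell. Counts of genes that rose or fell are calls of the edgeR quasi-likelihood test (Benjamini-Hochberg adjusted p under 0.05). This test called 41.3% of all genes tested. Their sum was 578 to 597 CPM with vehicle and 756 to 784 CPM with TGF-β1. *Pdgfrb* (9117 to 13604 counts) and *Cspg4* (3683 to 8086 counts) were abundant and both rose, whereas *Rgs5* fell from 8.62 ± 0.466 to 2.13 ± 0.245 CPM and *Anpep* from 40.5 ± 3.52 to 30.1 ± 1.40 CPM (SD, n = 4 each). *Des* had 25 to 36 counts, and *Kcnj8* stayed at 0 to 2 counts and *Abcc9* at 0 to 9 counts in every culture. Of 10 endothelial markers 6 were tested, and 2 rose and 1 fell, with sums of 473 to 486 CPM with vehicle and 475.5 to 501 CPM with TGF-β1. *Vwf* rose from 1.58 ± 0.429 to 3.81 ± 0.679 CPM and *Flt1* from 81.7 ± 1.32 to 99.2 ± 1.11 CPM, while *Tek* fell from 2.71 ± 0.575 to 1.99 ± 0.164 CPM with overlapping groups (SD, n = 4 each). *Tek* was not called without vehicle replicate 1 (edgeR adjusted p = 0.115). *Cdh5* was at 374.9 CPM with vehicle and 367 CPM with TGF-β1, while *Pecam1* was at 1.11 CPM in both groups and *Cldn5* had at most 10 counts. Fibroblast markers summed to 4238 to 4432 CPM with vehicle and 5617 to 5885 CPM with TGF-β1, most of it *Col1a1* and *Col1a2*, while 4 of the 7 tested genes of that list fell and 2 rose. The part of such cells in the results was not tested. In bulk RNA, fewer cells of a type and less RNA per cell cannot be told apart.

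The pericyte cultures expressed 2 of the 3 ligands, *Bdnf* and *Gdnf*, and both rose with TGF-β1, by 1.95-fold and 1.82-fold. Among the receptors *Gfra1* and *Gfra2* rose and *Ntrk3* fell, whereas *Ngfr* stayed at 9 to 24 counts in every culture, *Ntrk2* at 2 to 11 and *Ntf3* at 0 to 5. In all, 6 of the 8 members passed the filter on low counts and 5 of those 6 were called, 4 higher and 1 lower (edgeR quasi-likelihood test, Benjamini-Hochberg adjusted p under 0.05). The same rule called 41.3% of the 22544 genes tested, 20.9% as higher and 20.3% as lower, so a call as such was common in this comparison. DESeq2 called the same 5 members, where it called 32.8% of 26385 genes. In 4 of the 6 tested members every CPM value of 1 group lay beyond those of the other, which held for 37.9% of all genes tested.

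**Figure D1:**
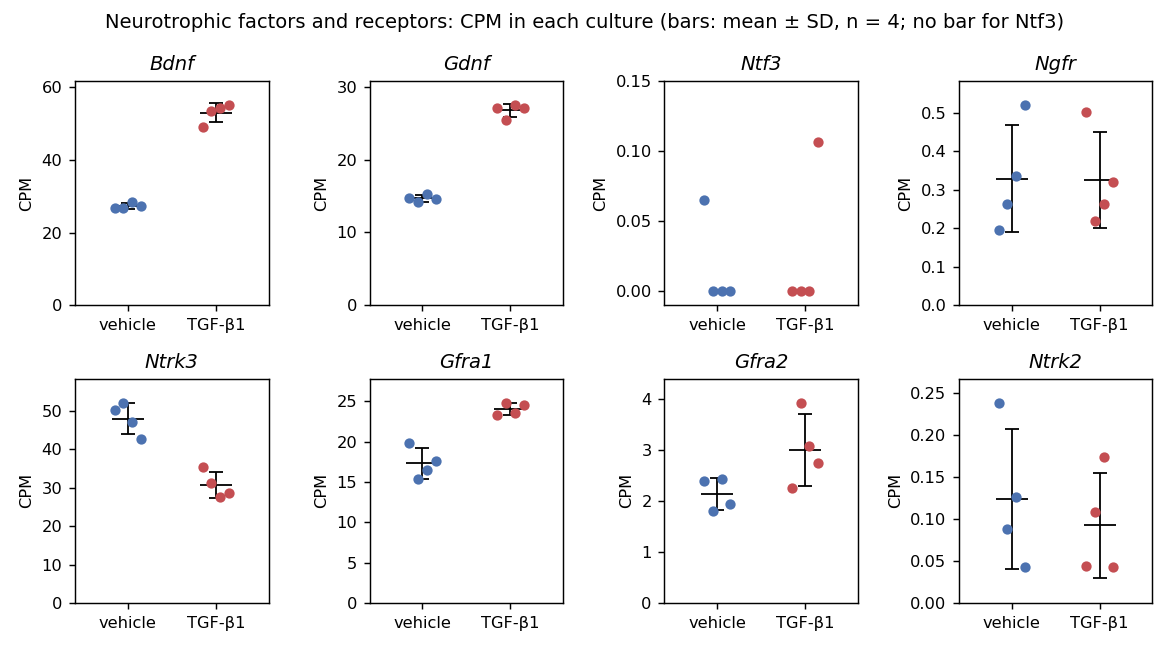
CPM of each of the 8 members (vertical axis, 1 panel per gene with its own scale) in the 4 vehicle (blue) and 4 TGF-β1 (red) cultures, with black bars for the mean ± SD except in *Ntf3*, where 6 of 8 cultures are at 0. The groups are apart in *Bdnf*, *Gdnf*, *Ntrk3* and *Gfra1* and overlap in the other 4 panels.

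*Bdnf* (ENSMUSG00000048482, chromosome 2, 109674700 to 109727007 of GRCm38, plus strand) had 11 annotated transcripts, all of them coding and differing mainly in their first exon. Its level was 26.7, 26.7, 28.5 and 27.2 CPM in the vehicle cultures and 49.2, 53.6, 54.4 and 55.1 CPM in the TGF-β1 cultures. Every TGF-β1 culture lay above every vehicle culture, and the gap between the groups was many times the spread within them. The means were 27.3 ± 0.852 CPM with vehicle and 53.1 ± 2.68 CPM with TGF-β1 (SD, n = 4 each). The log2 fold change was 0.96 (edgeR quasi-likelihood test, standard error, SE, 0.04, adjusted p = 8.19e-24), larger in size than that of 94.0% of all genes tested. An antisense gene, Gm45346, overlaps 14.4% of the *Bdnf* exon bases, but it held between 0 and 3 counts in any culture.

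*Gdnf* (ENSMUSG00000022144, chromosome 15, 7810846 to 7837575, plus strand) has 1 transcript in GENCODE M21, which starts between the pair of RefSeq starts printed above. It stood at 14.8, 14.1, 15.2 and 14.6 CPM in the vehicle cultures and at 27.0, 25.4, 27.5 and 27.0 CPM in the TGF-β1 cultures. As with *Bdnf*, the groups were fully apart. The log2 fold change was 0.87 (edgeR quasi-likelihood test, SE 0.05, adjusted p = 6.74e-19), from a mean of 14.7 ± 0.459 to 26.7 ± 0.898 CPM (SD, n = 4 each).

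Because *Bdnf* and *Gdnf* rose by similar amounts, their ratio within each culture was compared, which does not depend on how libraries are scaled. It was 1.81 to 1.89 counts of *Bdnf* per count of *Gdnf* with vehicle and 1.82 to 2.11 with TGF-β1, and the ranges overlapped (exact permutation test on the log2 ratio, two-sided, p = 0.114, and 0.171 after Benjamini-Hochberg adjustment over the 3 ratios tested). A difference between the rises of these ligands was therefore not detected with 4 cultures against 4, whose smallest possible p is 0.0286. The ratios were chosen after the values were seen.

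*Ntf3* (ENSMUSG00000049107, chromosome 6, 126101412 to 126166910, minus strand), the preferred ligand of TrkC, was not above the floor of 3 counts in 7 of the 8 cultures. The counts were 3, 0, 0 and 0 with vehicle and 0, 0, 0 and 5 with TGF-β1. The sums of 3 and 5 counts correspond to 0.0162 CPM (95% exact Poisson interval 0.00334 to 0.0473, counting error only) and 0.0271 CPM (0.0088 to 0.0632). It did not pass the filter and was not tested.

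*Ntrk3* (ENSMUSG00000059146, chromosome 7, 78175959 to 78738012, minus strand) encodes TrkC, the kinase receptor of neurotrophin 3. The vehicle cultures had 50.2, 52.1, 47.1 and 42.7 CPM and the TGF-β1 cultures 35.3, 31.1, 27.6 and 28.6 CPM. All TGF-β1 cultures were below all vehicle cultures, the closest pair being 42.7 and 35.3 CPM. The mean fell to 0.638 times its vehicle level, from 48.0 ± 4.13 to 30.6 ± 3.44 CPM (SD, n = 4 each), a log2 fold change of -0.65 (edgeR quasi-likelihood test, SE 0.09, adjusted p = 0.000709). GENCODE lists 20 transcripts for *Ntrk3*, of which 6 are coding. They include forms with and without the kinase domain, which counts per gene do not separate.

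*Ntrk2* (ENSMUSG00000055254, chromosome 13, 58806569 to 59133970, plus strand), the receptor of BDNF, had 11, 4, 6 and 2 counts in the vehicle cultures and 2, 5, 8 and 2 counts in the TGF-β1 cultures. This is 0.124 CPM (95% exact Poisson interval 0.0787 to 0.186) and 0.0921 CPM (0.0537 to 0.147) over the group sums of 23 and 17 counts. The intervals overlap, the gene did not pass the filter, and a difference was not detectable at this depth. The ligand *Bdnf* thus rose in cultures in which its kinase receptor was close to the floor in both groups.

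*Ngfr* (ENSMUSG00000000120, chromosome 11, 95568818 to 95587735, minus strand), which encodes p75NTR, was at 9, 12, 16 and 24 counts with vehicle and at 23, 10, 12 and 15 counts with TGF-β1. The groups covered nearly the same range, at 0.329 ± 0.140 and 0.325 ± 0.125 CPM (SD, n = 4 each). The log2 fold change was -0.02 (edgeR quasi-likelihood test, SE 0.38, adjusted p = 0.978), with a 95% interval from -0.78 to 0.74, so a change of up to about that size in either direction was not detectable. Its sign turned when single cultures were left out.

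*Gfra1* (ENSMUSG00000025089, chromosome 19, 58235604 to 58455909, minus strand) encodes the GDNF co-receptor. It was at 19.8, 15.3, 16.5 and 17.5 CPM in the vehicle cultures and 23.3, 24.8, 23.5 and 24.5 CPM in the TGF-β1 cultures. The vehicle cultures varied more than the TGF-β1 cultures, but no value was shared between the ranges. The mean went from 17.3 ± 1.91 to 24.0 ± 0.748 CPM (SD, n = 4 each), with a log2 fold change of 0.47 (edgeR quasi-likelihood test, SE 0.06, adjusted p = 4.67e-09). The antisense gene Gm16277 overlaps 7.6% of the exon bases and had at most 2 counts.

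*Gfra2* (ENSMUSG00000022103, chromosome 14, 70890120 to 70979838, plus strand), the neurturin co-receptor, was at 2.39, 1.80, 2.42 and 1.93 CPM with vehicle and 2.25, 3.92, 3.08 and 2.74 CPM with TGF-β1. The lowest TGF-β1 culture lay within the vehicle range. The log2 fold change was 0.49 (edgeR quasi-likelihood test, SE 0.15, adjusted p = 0.00741), but the exact permutation test on CPM gave p = 0.0857 (two-sided). The call rested on TGF-β1 replicate 6, without which the log2 fold change was 0.33 and the adjusted p 0.0964 in the same edgeR test. The ratio of *Gfra1* to *Gfra2* counts was 6.83 to 9.10 with vehicle and 6.33 to 10.3 with TGF-β1 (exact permutation test, two-sided, p = 1.00).

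Within each culture, *Gdnf* was also compared with its co-receptor. It had 0.744 to 0.922 counts per *Gfra1* count with vehicle and 1.03 to 1.17 with TGF-β1. The log2 ratio was 0.39 higher, without overlap (exact permutation test, two-sided, p = 0.0286, and 0.0857 after Benjamini-Hochberg adjustment over the 3 ratios tested). As 0.0286 is the smallest possible p and no other ratio reached it, the adjusted value could not have been lower. The adjusted value therefore cannot decide whether this ratio changed. For the pair that moved in opposite directions, *Bdnf* had 0.512 to 0.638 counts per *Ntrk3* count with vehicle and 1.39 to 1.97 with TGF-β1, which follows from the changes of the parts and was not tested.

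The ratios above are of counts without regard to gene length, and serve to compare the groups. Different genes were put in order of level only per kilobase of annotated exon (FPKM, here CPM divided by the union of a gene's exons). With vehicle the order of the members was *Bdnf* at 4.39 ± 0.137, *Gdnf* at 3.99 ± 0.125, *Gfra1* at 3.16 ± 0.349, *Ntrk3* at 1.59 ± 0.137, *Gfra2* at 0.603 ± 0.0895 and *Ngfr* at 0.0954 ± 0.0406 FPKM (SD, n = 4 each), with *Ntf3* and *Ntrk2* below 0.01 FPKM. The ranges of neighbours in this order did not overlap from *Bdnf* to *Ngfr*, while *Ntf3* and *Ntrk2* could not be ordered at these counts. With TGF-β1 the order was the same, at 8.54 ± 0.431 for *Bdnf*, 7.28 ± 0.244 for *Gdnf*, 4.39 ± 0.137 for *Gfra1*, 1.02 ± 0.114 for *Ntrk3* and 0.847 ± 0.199 FPKM for *Gfra2*, where the ranges of *Ntrk3* and *Gfra2* overlapped. *Ntrk3* has 30170 exon bases over its 20 transcripts, so its FPKM depends on the length used. Per base of the longest coding transcript it was 2.44 FPKM with vehicle and 1.56 FPKM with TGF-β1. Per base of the shortest coding transcript of each gene, *Ntrk3* (423 bases) was at 113.5 and 72.4 FPKM and *Gfra1* (349 bases) at 49.6 and 68.9 FPKM, above *Bdnf* at 7.36 and 14.3 FPKM, so the order given here holds for the union of exons and turns with this length.

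**Figure D2:**
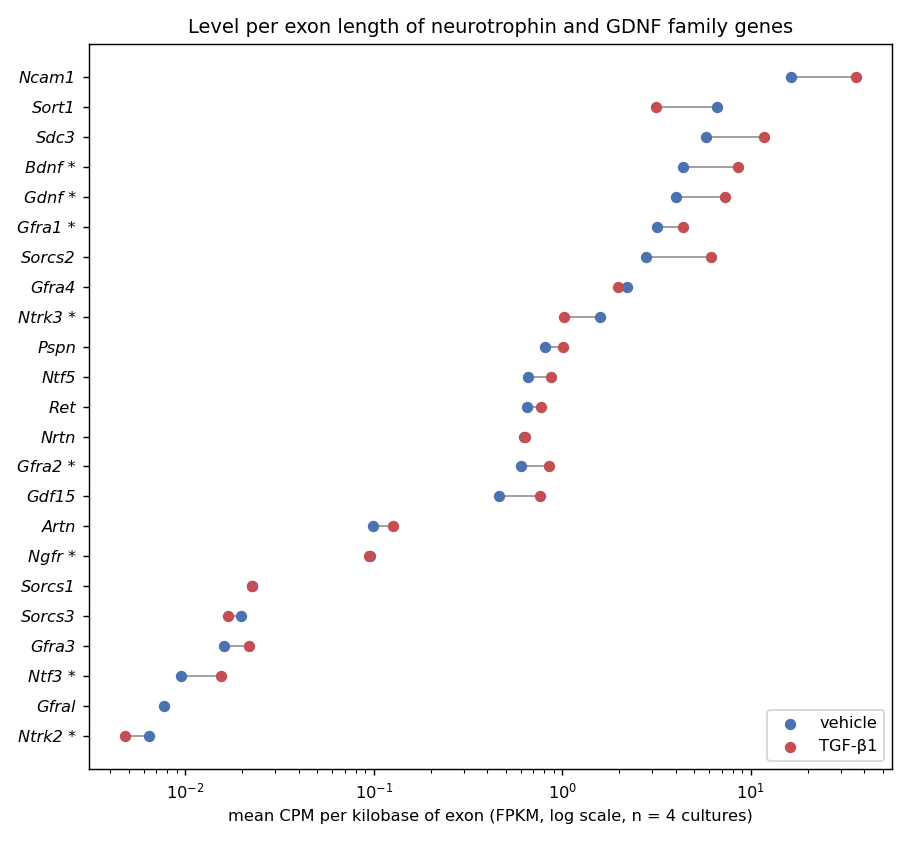
Mean CPM per kilobase of exon (FPKM, horizontal log axis, n = 4 cultures) with vehicle (blue) and TGF-β1 (red) for the 8 members, marked with an asterisk, and the 15 other neurotrophin and GDNF family genes, with a grey line between the groups. *Ncam1* is highest in both groups, and *Gfral*, with 0 counts in all TGF-β1 cultures, has a vehicle point only.

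The list of other neurotrophin ligands and receptors held 5 genes, of which 3 were tested, with 2 called higher and 1 lower. Among all genes tested 41.3% were called. The median log2 fold change of the list was 0.40, beside -0.01 over all genes tested. *Ntf5* (neurotrophin 4, the other ligand of TrkB) went from 1.75 ± 0.267 to 2.31 ± 0.284 CPM with overlapping groups, a log2 fold change of 0.40 (adjusted p = 0.0290, edgeR quasi-likelihood test). It kept its call in 10 of 15 alternatives, with an edgeR adjusted p of up to 0.141 with a culture left out. Without vehicle replicate 1, 3 or 4 or TGF-β1 replicate 7, the higher calls on this list were 1 in place of 2.

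The sortilin family, whose members bind neurotrophin precursors with p75NTR, moved in opposite directions. *Sort1* (sortilin) fell from 50.3 ± 1.19 to 23.8 ± 1.76 CPM, a log2 fold change of -1.08 (edgeR quasi-likelihood test, SE 0.04, adjusted p = 1.21e-24). *Sorcs2* rose from a mean of 24.6 to 54.2 CPM, a log2 fold change of 1.14 (same test, SE 0.04, adjusted p = 2.55e-25; SD, n = 4 each). Per length of the union of exons, *Sort1* was above *Sorcs2* with vehicle, at 6.64 ± 0.158 and 2.79 ± 0.130 FPKM. With TGF-β1 it was below *Sorcs2*, at 3.14 ± 0.232 and 6.15 ± 0.358 FPKM (SD, n = 4 each), without overlap in either group. This order depends on the length used. Per base of the shortest coding transcript, *Sorcs2* (665 bases) was at 37.0 and 81.5 FPKM and *Sort1* (6796 bases) at 7.40 and 3.50 FPKM. By that length *Sorcs2* was above *Sort1* in both groups. *Sorcs1* and *Sorcs3* were too low to be tested.

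The list of other GDNF family ligands and receptors held 10 genes, among them the GDNF-binding proteins *Ncam1* and *Sdc3*. Of the 8 tested, 4 rose (*Ncam1*, *Sdc3*, *Gdf15* and, close to the threshold, *Ret*) and none fell, with a median log2 fold change of 0.33. Of all genes tested 41.3% were called, 20.9% as higher and 20.3% as lower. *Ncam1*, which binds GDNF with GFRα1 in the absence of Ret, rose from 141 ± 2.71 to 313 ± 20.9 CPM, and *Sdc3*, a heparan sulfate proteoglycan that binds GDNF, from 34.7 ± 0.912 to 70.7 ± 4.37 CPM (SD, n = 4 each). Their log2 fold changes were 1.14 and 1.02 (adjusted p = 5.4e-14 and 2.56e-25, edgeR quasi-likelihood test). *Ret*, the signalling kinase of the family, was at 4.38 ± 0.164 CPM with vehicle and 5.19 ± 0.644 CPM with TGF-β1. Its log2 fold change of 0.25 was close to the threshold (adjusted p = 0.0490, edgeR quasi-likelihood test), the groups overlapped, and DESeq2 did not call it (adjusted p = 0.0779). *Gdf15*, the ligand of GFRAL, rose by a log2 fold change of 0.72 (adjusted p = 0.00402, edgeR quasi-likelihood test) at 24 to 73 counts, while *Gfral* itself had at most 2 counts. The other ligands *Nrtn*, *Artn* and *Pspn* had 8 to 38 counts and were not called, and neither was *Gfra4*, the co-receptor of persephin, at 4.77 ± 0.348 and 4.29 ± 0.694 CPM (SD, n = 4 each).

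**Figure D3:**
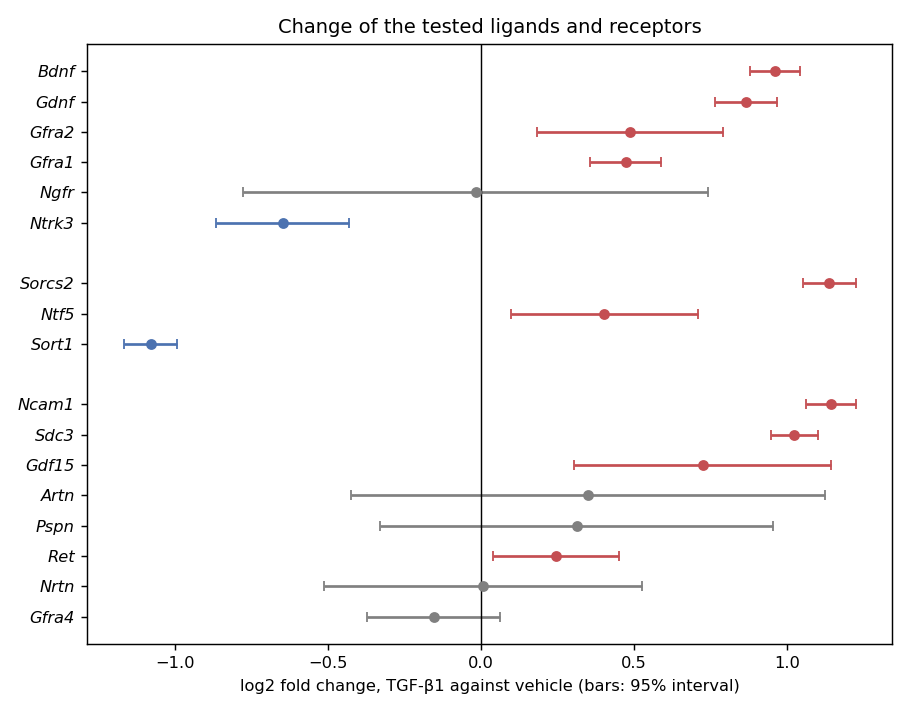
Log2 fold change of TGF-β1 against vehicle (horizontal axis, points, with bars for the 95% interval of the edgeR fit) for the tested members (upper block), other neurotrophin genes (middle) and other GDNF family genes (lower), in red where called higher, blue where called lower and grey where not called. *Ntrk3* and *Sort1* are the only genes called lower among the 17 shown.

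Of 26 genes for adaptors that activated Trk or Ret kinases recruit, all were tested, 10 rose and 5 fell, with a median log2 fold change of 0.03. Over all genes tested 41.3% were called. *Grb2*, *Frs2*, *Plcg1* and *Ptpn11*, which link most active Trk receptors to Ras and phospholipase C, were not called. Other adaptors of the list had groups that were apart. *Shc1* was at 370 ± 8.82 CPM with vehicle and 356 ± 5.48 CPM with TGF-β1, and *Gab1* at 55.3 ± 0.294 and 48.2 ± 2.67 CPM. *Sos1* was at 120 ± 3.69 and 132 ± 1.55 CPM and *Shc2* at 42.9 ± 0.661 and 59.5 ± 1.46 CPM (SD, n = 4 each). The largest changes were in *Dok6*, a docking protein of Ret, which rose from 0.804 ± 0.103 to 3.05 ± 0.138 CPM (log2 fold change 1.92), *Sh2b2* (0.89) and *Irs2* (0.76). *Shc3*, a neuronal adaptor, fell from 1.30 ± 0.328 to 0.775 ± 0.140 CPM (SD, n = 4 each). The edgeR quasi-likelihood test gave these 4 genes adjusted p-values of 8.24e-14, 6.46e-11, 3.86e-25 and 0.00508. The 14 listed partners and effectors of p75NTR were all tested, and 5 rose and 2 fell, by at most 0.31 on the log2 scale. *Bex3*, which binds the p75NTR death domain, rose by 0.30, *Lingo1* by 0.31 and *Nradd* by 0.28, and *Adam10*, a sheddase, fell by 0.26 (adjusted p at most 0.00355, edgeR quasi-likelihood test).

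Among 10 enzymes that act on neurotrophin precursors or on plasminogen, 8 were tested, 4 rose and 2 fell, with a median log2 fold change of 0.20. The share called over all genes tested was 41.3%. Of the proconvertases that can cut precursors inside the cell, *Furin* and *Pcsk5* rose by 0.35 and 0.92, *Pcsk7* fell by 0.13, and *Pcsk6*, at 6 to 37 counts, was not called. Outside the cell, *Plat*, an activator of plasminogen, fell by 0.31, while *Plau*, another activator, had 363 to 464 counts and was not called. *Mmp3* and *Mmp9*, which can cut precursors in the matrix, rose by 1.08 and 1.32, the latter at 15 to 58 counts. *Plg*, the plasminogen gene, had at most 4 counts. These proteins act on many substrates besides the neurotrophins.

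Markers of the cells in which the members are best known were measured beside them. The calls on these lists stand beside 41.3% of all genes tested. Of 12 neuron markers 7 were tested, and 1 rose and 2 fell. They summed to 16.1 to 18.8 CPM with vehicle and 17.2 to 21.2 CPM with TGF-β1 (exact permutation test, two-sided, p = 0.371). The neuronal nuclear gene *Rbfox3* had 2 to 13 counts. These sums covered opposite differences. *Tubb3* was at 2.11 ± 0.314 CPM with vehicle and 7.91 ± 1.09 CPM with TGF-β1. *Map2* was at 10.8 ± 0.927 and 6.92 ± 0.743 CPM and *Gad1* at 0.948 ± 0.194 and 0.400 ± 0.109 CPM (SD, n = 4 each). Of 10 astrocyte markers 9 were tested, and 3 rose and 3 fell, with sums of 366 to 375.5 CPM and 359 to 375.2 CPM and the water channel *Aqp4* at 0 to 6 counts. Much of these sums was *Gja1*, at 195 and 190 CPM. *Slc1a2* was at 38.5 ± 2.88 and 16.3 ± 0.996 CPM, *S100b* at 4.80 ± 0.130 and 1.64 ± 0.216 CPM and *Gjb6* at 0.719 ± 0.121 and 0.0434 ± 0.0356 CPM. *Slc1a3* was at 9.74 ± 0.569 and 15.2 ± 1.08 CPM, *Aldh1l1* at 5.16 ± 0.422 and 8.79 ± 0.305 CPM and *Slc4a4* at 114 ± 1.66 and 135 ± 2.55 CPM (SD, n = 4 each). Of 12 Schwann cell and oligodendrocyte markers 6 were tested, and 1 was called higher and 2 lower. They summed to 26.3 to 27.8 CPM and 21.1 to 24.1 CPM (exact permutation test, two-sided, p = 0.0286), of which *Cnp* made up 21.5 and 15.9 CPM. *Pmp2* was at 0 in every culture, *Mag*, *Olig1* and *Olig2* had at most 3 counts, and *Sox10*, which defines these lineages, had 2 to 34 counts. *Mbp* was at 1.86 ± 0.134 and 2.62 ± 0.282 CPM (SD, n = 4 each). Of 10 macrophage and microglia markers 7 were tested, and 1 was called higher. They summed to 8.57 to 9.27 CPM and 9.94 to 11.5 CPM (exact permutation test, two-sided, p = 0.0286). The called gene was *Csf1r*, at 45 to 86 counts with vehicle and 106 to 132 counts with TGF-β1. *Cd68*, with 208 to 300 counts, was not called, and *C1qb* was at 0 throughout.

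By pattern over the 8 cultures, the genes most like *Bdnf* among 16493 with a mean of at least 1 CPM were *Adamts12*, *Ncam1* and *Frrs1* (Pearson r = 0.999 for each on log2 CPM, n = 8), and those most like *Gdnf* were *Acaca*, *Fst* and *Tpr* (r = 0.999, 0.998 and 0.998). *Fst*, which encodes the activin antagonist follistatin, went from 11.5 ± 0.900 to 32.0 ± 1.26 CPM (SD, n = 4 each). Likeness of this degree was common, since 388 genes reached an r over 0.99 with *Bdnf* and 224 with *Gdnf*. The cultures share their treatment groups, so these values carry no test.

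**Figure D4:**
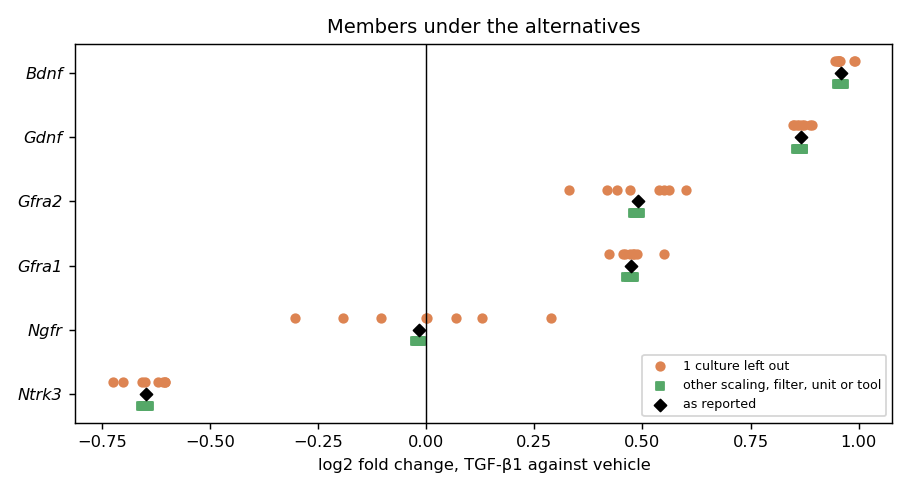
Log2 fold change of TGF-β1 against vehicle (horizontal axis) of the 6 tested members as reported (black), with 1 culture left out (orange) and with another scaling, filter, counting unit or tool (green). *Bdnf*, *Gdnf*, *Gfra1*, *Gfra2* and *Ntrk3* keep their sign in all 15 alternatives, with *Bdnf* between 0.94 and 0.99, whereas *Ngfr* ranges from -0.30 to 0.29.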

How the data were processed

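Per the labels and the study's methods, the authors aligned reads from stranded total RNA libraries to mm10 with STAR 2.7.5c (two-pass), took out PCR duplicates by means of SAMtools 1.15 and deposited raw counts per Ensembl gene from featureCounts 2.0.3, 1 library per culture and without normalization. Whether strand was used, how pairs were counted and which annotation served are not given in the sources used here.

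Counts of all genes were analysed with edgeR 4.0.16 in R 4.3.3 (filterByExpr, TMM, robust quasi-likelihood test of 4 TGF-β1 against 4 vehicle cultures, Benjamini-Hochberg adjustment, threshold 0.05). The standard error was the log2 fold change divided by the square root of F. Symbols were found for 54409 of 54532 identifiers, and positions came from GENCODE M21 (GRCm38). Single values were compared with exact permutation tests over 70 arrangements. The alternatives were DESeq2 1.42.0, other scalings and filters, halved counts and each culture left out. The code was tested on simulated data.

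The members and lists were chosen with earlier results of these data known. Named on each further list were up to 4 called genes of at least 1 CPM in a group with the largest change, and for the 2 members that changed most the 3 genes most like each. Some genes of these families are not reported here and were left out of the lists. Genes named beyond that rule were chosen after their values were seen. Within-group pairs of cultures differed by 2.25 to 3.96 per degree of freedom in a chi-square test of counts (1.14 to 2.11 with counts halved), where sampling noise gives about 1, and each culture was counted as 1 replicate. The p-values measure the spread between these cultures, which may share isolates.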

Additional observations from a re-analysis of the deposited data

Results flagged for a closer look

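In 56 groups of 4 values (the tested members, the named genes of the other lists and the count totals), 1 culture stood well away from its 3 group mates in 7, against 2.8 that chance gives at about 1 group in 20. None was a value of *Bdnf*, *Gdnf*, *Ntrk3*, *Gfra1*, *Gfra2* or *Ngfr*. In TGF-β1 replicate 5, *Sorcs2* was at 49.5 CPM against 55.5 CPM in the nearest culture and *Sh2b2* at 6.85 against 7.59 CPM. In vehicle replicate 2, *Ntf5* was at 2.15 CPM against 1.65 CPM, *Sh2b2* at 4.50 against 3.93 CPM and *Bex3* at 106 against 116 CPM. TGF-β1 replicate 7 had 119.9 CPM of *Irs2*, with 112 CPM in the nearest culture, and TGF-β1 replicate 6 had 147 CPM of *Bex3*, with 139 CPM in the nearest. The explanations of these values were not tested.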

How the results depend on the processing

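No paired analysis was possible because the vehicle cultures carry the numbers 1 to 4 and the TGF-β1 cultures 5 to 8, so no number is shared. *Bdnf*, *Gdnf*, *Gfra1* and *Ntrk3* kept their direction and their call in all 15 alternatives. *Gfra2* kept its direction and lost its call only without TGF-β1 replicate 6. With each culture left out its log2 fold change ranged from 0.33 to 0.60 (edgeR adjusted p from 0.00114 to 0.0964). That of *Ngfr*, never called, ranged from -0.30 to 0.29 with each culture left out, and it could not be fitted with at least 10 counts in every culture or with halved counts, where it was filtered out. The number of genes called over the whole table, 9304, stayed within 1.5 times that value in every alternative, and the median log2 fold change over all genes stayed within 0.03 of 0. The counts of calls on every list did so too, except the 2 higher calls among the other neurotrophin genes. Among the genes of the other lists, *Ntf5* (log2 fold change 0.40) lost its call with every gene of at least 1 count tested (adjusted p = 0.0581) and without any of 4 single cultures, down to 0.31 without TGF-β1 replicate 7. The higher calls among the other neurotrophin genes were then 1 in place of 2, and ranged from 1 to 2 with each culture left out. *Ret* (0.25) lost it in 9 of 15 alternatives, among them library totals (adjusted p = 0.0641), upper-quartile factors (0.0583) and DESeq2 (0.0779), and without TGF-β1 replicate 7 it was 0.18. *Tek* lost its call without vehicle replicate 1, at -0.31. The other genes of the lists that the text says rose or fell kept direction and call in all 15 alternatives. Genes that were not called, or are given only by counts or levels, were not recomputed. The depth limits what can be said of *Ntf3*, *Ntrk2* and *Ngfr*, with at most 24 counts per culture. The causes of the lost calls were not tested.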

Other observations

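Outside the neurotrophin and GDNF families, 7 further genes for secreted proteins with neurotrophic activity or their receptor were all tested, and 1 rose and 1 fell. Calls made up 41.3% of all genes tested. *Ptn* (pleiotrophin, a heparin-binding growth factor of the developing brain and of pericytes) fell, from 19.1, 22.4, 23.2 and 21.4 CPM in the vehicle cultures to 2.64, 2.72, 3.40 and 3.19 CPM in the TGF-β1 cultures. The groups were far apart, with a log2 fold change of -2.85 (edgeR quasi-likelihood test, SE 0.08, adjusted p = 1.42e-29). Its relative *Mdk* (midkine) was at 12 to 31 counts and was not called. *Manf*, an endoplasmic reticulum protein with neurotrophic activity, rose slightly, from 79.4 ± 2.44 to 85.7 ± 2.50 CPM (SD, n = 4 each; log2 fold change 0.11, adjusted p = 0.0023, edgeR quasi-likelihood test). *Nenf*, *Cdnf*, *Cntf* and *Cntfr* were not called. Because 78.9% of the *Cntf* exon bases are shared with another annotated gene, its count is uncertain.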
